A study of Mus musculus with 8 samples.

Results

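Cxcl2, Cxcl3, Ccl3, Prok2 and Alox5ap, which encode attractants of neutrophils and monocytes or a protein needed to make one, were examined in colonic epithelial cells on day 7 of colitis induced with dextran sulfate sodium (DSS). They were picked by name from the genes that the authors listed as different between genotypes on that day, so all 5 members came from the 128 listed genes of day 7, and none of the 5 was among the 309 genes listed on day 0. DSS in the drinking water damages the colonic epithelium and sets off an acute colitis. Epithelial cells were taken from Efhd2f/f Vil1cre/+ mice, in which Cre driven by the villin promoter removes the second exon of Efhd2 from intestinal epithelium, and from Efhd2f/f mice, which carry the floxed alleles without Cre and are labelled wildtype. Each genotype was sequenced without DSS (day 0) and on day 7 of colitis, with 2 libraries in each of the 4 groups. Adult mice of both sexes were used in the study. The dose of DSS and the number of animals behind each library are not given for these libraries, so the spread between libraries may be technical. The cells were the EDTA-released fraction of the colon passed through a strainer, without a sort, and such a fraction can hold leukocytes. RNA was measured in bulk, so fewer cells of a type and less RNA per cell cannot be told apart.

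Attractants guide phagocytes out of the blood and through tissue along a gradient. Cxcl2 and Cxcl3 encode CXC chemokines with a glutamate-leucine-arginine motif, which act on neutrophils through the receptor Cxcr2. Ccl3 (macrophage inflammatory protein 1 alpha) encodes a CC chemokine that acts on monocytes and other leukocytes through CC chemokine receptors. Prok2 encodes prokineticin 2, also called Bv8, a small secreted protein of neutrophils and other myeloid cells that signals through the prokineticin receptors. Alox5ap encodes the 5-lipoxygenase activating protein, a membrane protein that presents arachidonic acid to 5-lipoxygenase in the synthesis of leukotrienes, among them the neutrophil attractant leukotriene B4. It is therefore not an attractant itself. In the colon these genes are known to be expressed by infiltrating myeloid cells, and the CXC chemokines also by inflamed epithelium.

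Cxcl3 (ENSMUSG00000029379) and Cxcl2 (ENSMUSG00000058427) lie on chromosome 5 (GRCm38, plus strand), at 90786103 to 90789600 and 90903871 to 90905938. They are separated by 114270 bases that hold 2 other protein-coding genes in the GENCODE M21 annotation, Cxcl15 and Cxcl1. Alox5ap (ENSMUSG00000060063) is on the same chromosome and strand, from 149264767 to 149288153. Prok2 (ENSMUSG00000030069) is on the minus strand of chromosome 6, from 99711299 to 99726392, and Ccl3 (ENSMUSG00000000982) on the minus strand of chromosome 11, from 83647844 to 83649355. All 5 genes are annotated as protein coding, and the authors' coordinates equalled those of GENCODE M21 for all 5. Their longest coding transcripts have 3 exons in Cxcl2, Ccl3 and Prok2, 4 in Cxcl3 and 5 in Alox5ap. Other annotated genes on the opposite strand overlap Prok2 (Gm26748) and Alox5ap (n-R5s180 and Gm19719), and reads of either strand cannot be told apart unless strand was used in the counting, which is not given in the sources used here. Cxcl1, Cxcl2 and Cxcl3 are related in sequence, so reads shared among them could have been split by the counting.

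RefSeq promoter sequences of GRCm38.p6, from 250 bases before the transcription start to 50 after it, were matched for 4 of the members. The promoters of the neighbours Cxcl2 (chr5:90903649-90903948, plus strand) and Cxcl3 (chr5:90785851-90786150, plus strand) are printed to show what these neighbours have in common. Capitals mark the longest run of bases that both held before the start, GGGAATTTCCC, which includes a form of the NF-kB site.
Cxcl2: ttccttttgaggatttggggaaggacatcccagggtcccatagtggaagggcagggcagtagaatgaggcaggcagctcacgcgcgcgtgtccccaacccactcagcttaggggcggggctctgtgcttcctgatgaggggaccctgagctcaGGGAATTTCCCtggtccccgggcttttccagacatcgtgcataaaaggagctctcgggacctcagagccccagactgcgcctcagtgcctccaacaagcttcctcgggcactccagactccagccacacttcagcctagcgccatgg
Cxcl3: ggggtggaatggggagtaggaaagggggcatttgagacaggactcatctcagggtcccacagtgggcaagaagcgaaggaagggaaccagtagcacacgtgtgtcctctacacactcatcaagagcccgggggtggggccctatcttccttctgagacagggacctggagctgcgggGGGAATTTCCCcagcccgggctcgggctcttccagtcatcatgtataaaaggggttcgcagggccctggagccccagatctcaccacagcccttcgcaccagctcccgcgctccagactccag

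The run started 97 bases before the transcription start in Cxcl2 and 73 bases before it in Cxcl3, on the plus strand in both. Searched on both strands, it was present in 14 of 32851 mouse promoters of the same length, or 0.0426%. Among the 84 genes listed higher on day 7 with a promoter in the RefSeq table, none held it besides Cxcl2 and Cxcl3, from which it was taken. The next longest shared run before the start had 10 bases. TATAAA, searched on both strands, was found 30 bases before the start of Cxcl3 and, on the opposite strand, 46 bases before that of Prok2. A promoter with these letters was found for 15.7% of all genes in the RefSeq table and 36.9% of the 84 genes listed higher. TGANTCA, a form of the AP-1 site that reads alike on both strands, was found 67 bases before the start of Prok2. Counted in the same way, it was found for 8.97% of all genes and 9.52% of the 84 genes. Ccl3 held none of these letters in this window. After global alignment, 64.3% of bases were identical between the Cxcl2 and Cxcl3 promoters, and between 46.7% and 55.3% in the other pairs of matched members. Such matches describe the sequence and do not show that a factor was bound.

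The values are the authors' normalized counts, which were scaled within the table of each day, so levels were compared only within a day. On day 7, both Efhd2f/f Vil1cre/+ libraries were above both Efhd2f/f libraries for 5 of 5 members, and this was so for 90.6% of the listed genes, while 8.59% were below both. Genes entered the table because these very libraries differed, so the values are given as a description and no test was made on them. Even for an unselected gene, 2 libraries against 2 cannot give a two-sided exact permutation p below 0.333. The members differed in size of difference and in evenness. Prok2 was apart from the others, at 36.2 times the control mean, while the other 4 ranged from 3.69 times (Cxcl2) to 6.03 times (Alox5ap).

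Cxcl2 was at 14086 and 10183 normalized counts in libraries 65 and 71 of Efhd2f/f Vil1cre/+ epithelial cells, and at 1917 and 4665 in libraries 67 and 68 of Efhd2f/f cells. The libraries of the 2 genotypes did not overlap, and the lowest Efhd2f/f Vil1cre/+ library was 2.18 times the highest control. The means were 12135 ± 2760 and 3291 ± 1944 (means ± s.d., n = 2 libraries each). The difference of the mean log2(normalized count + 1), here called the log2 difference, was 2.002 with a standard error of 0.68. Without control library 67, the lower of the controls, it was 1.36, and without control library 68 it was 2.64.

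Cxcl3 was at 1576 and 1899 normalized counts in the Efhd2f/f Vil1cre/+ libraries 65 and 71 and at 148 and 584 in the Efhd2f/f libraries 67 and 68. Its values were close to each other in Efhd2f/f Vil1cre/+ cells and 3.94-fold apart in the controls, with library 68 the higher as for Cxcl2. The means were 1737 ± 229 and 366 ± 308 normalized counts (n = 2 each), and the log2 difference was 2.55 with a standard error of 0.99. It was 1.57 without control library 67 and 3.54 without control library 68.

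Ccl3 was at 1815 and 452 normalized counts in the Efhd2f/f Vil1cre/+ libraries 65 and 71 and at 143 and 285 in the Efhd2f/f libraries 67 and 68. The genotypes were separated by little, since library 71 was 1.59 times control library 68, whereas the Efhd2f/f Vil1cre/+ libraries were 4.02-fold apart. The means were 1133 ± 964 and 214 ± 100.02 normalized counts (n = 2 each), with a log2 difference of 2.16 and a standard error of 1.12. Without library 65 the log2 difference was 1.16, without library 71 it was 3.16, without control library 67 it was 1.67 and without control library 68 it was 2.65. The height of Ccl3 in Efhd2f/f Vil1cre/+ cells therefore rested on library 65.

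Prok2 was at 153 and 158 normalized counts in the Efhd2f/f Vil1cre/+ libraries 65 and 71, and at 5.21 and 3.36 in the Efhd2f/f libraries 67 and 68. It was the most even of the members within Efhd2f/f Vil1cre/+ cells and had the widest gap, as every Efhd2f/f Vil1cre/+ library was between 29.3 and 47.0 times every control. The means were 155 ± 3.94 and 4.29 ± 1.31 normalized counts (n = 2 each), and the log2 difference was 4.91 with a standard error of 0.26. It ranked 5 among the 128 listed genes. The control values are low, so the log2 difference moved with the constant added before the logarithm, from 5.18 with 0.1 to 3.54 with 10, and the depth that would bound the counting error is unknown.

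Alox5ap was at 457 and 1395 normalized counts in the Efhd2f/f Vil1cre/+ libraries 65 and 71 and at 80.1 and 227 in the Efhd2f/f libraries 67 and 68. Library 71 was the higher of its genotype, the reverse of Ccl3, and library 65 was 2.01 times the higher control. The means were 926 ± 663 and 154 ± 104 normalized counts (n = 2 each), and the log2 difference was 2.56 with a standard error of 1.10. It was 3.36 without library 65, 1.75 without library 71, 1.81 without control library 67 and 3.30 without control library 68.

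**Figure D1:**
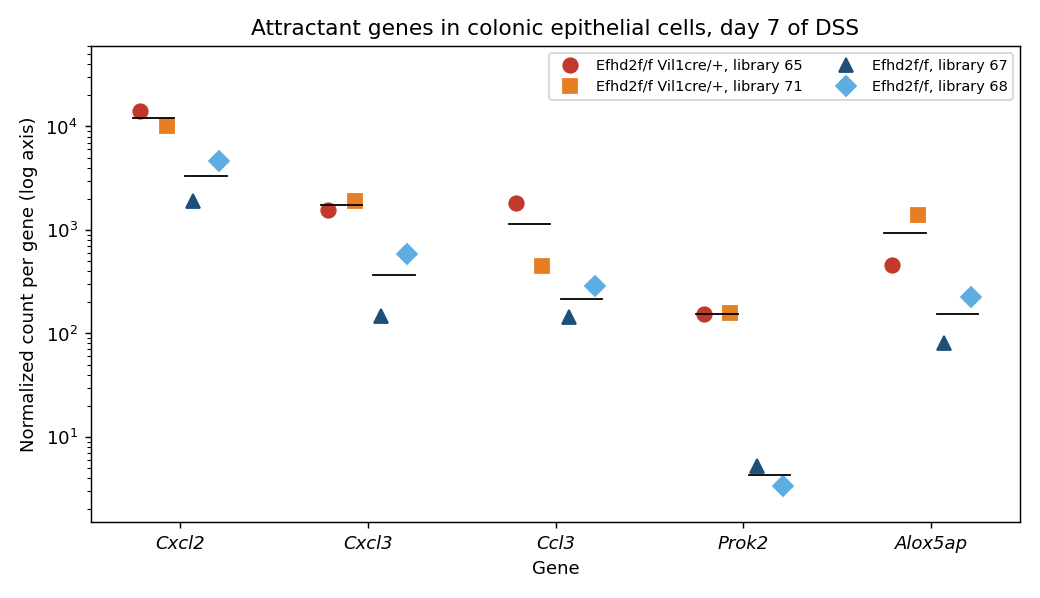
Normalized counts (log axis) of the 5 members in the 4 libraries of day 7. Symbols are single libraries, and horizontal lines are the means of 2 libraries per genotype. Both Efhd2f/f Vil1cre/+ libraries are above both Efhd2f/f libraries for every member, as for 90.6% of all listed genes. The margin is the narrowest for Ccl3 (452 against 285) and the widest for Prok2 (153 against 5.21).

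Set beside the other listed genes, the members other than Prok2 were ordinary in size. The median log2 difference of the members was 2.55 and that of all 128 listed genes was 2.53. Prok2 was 2.37 above this median on the log2 scale, Cxcl3 and Alox5ap were both 0.02 above it, Ccl3 was at -0.38 and Cxcl2 at -0.53 relative to it. These relative values do not depend on how the authors scaled the libraries, apart from the constant added before the logarithm, whereas the log2 differences themselves do. A log2 difference above 2 was seen for 5 of 5 members and for 70.3% of the listed genes, and Cxcl2 passed it by less than 0.01. Both Efhd2f/f Vil1cre/+ libraries were more than 2-fold above both controls for 4 of the members and for 82.0% of the listed genes. Ccl3 was the exception among the members. Both Efhd2f/f Vil1cre/+ libraries were more than 4-fold above both controls for Prok2 alone among the members and for 32.0% of the listed genes.

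**Figure D2:**
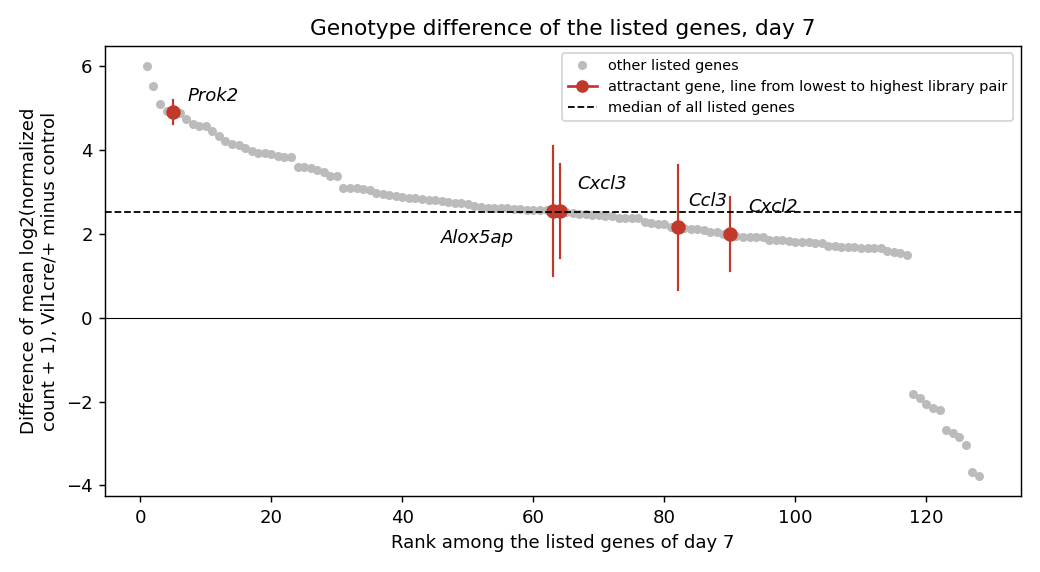
Log2 difference between genotypes (Efhd2f/f Vil1cre/+ minus Efhd2f/f, on log2 of normalized count + 1) of the 128 listed genes of day 7, in rank order. Red points are the members and red lines run from the lowest to the highest of their 4 library pairs. Prok2 is at 4.91 with a short line, and the other 4 members are between 2.002 and 2.56, near the dashed median of 2.53.

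Levels were compared between genes per kilobase of the gene length that the authors give. Cxcl2 was the highest of the members in every library, at 6812 and 4924 normalized counts per kilobase in Efhd2f/f Vil1cre/+ cells and 927 and 2256 in the controls. Prok2 was the lowest in every library, at 79.6 and 82.5 per kilobase in Efhd2f/f Vil1cre/+ cells and 2.72 and 1.76 in the controls. Between them in Efhd2f/f Vil1cre/+ cells, the levels per kilobase of Alox5ap, at 322 and 982, overlapped those of Ccl3, at 2369 and 590, and of Cxcl3, at 450 and 543, while Ccl3 was above Cxcl3 in both libraries. In the controls, Ccl3 was at 187 and 372 per kilobase, above Alox5ap at 56.4 and 160 and Cxcl3 at 42.4 and 167, which overlapped each other. The length given for Cxcl3, 3498 bases, equals its whole genomic span, and 1 of its 2 annotated transcripts is a retained-intron form. The same holds for Cxcl2, with 2068 bases and 2 retained-intron forms among 4 transcripts, and its longest coding transcript has 1859 bases. Per kilobase of its longest coding transcript, which has 1016 bases, Cxcl3 was at 1551 and 1869 in Efhd2f/f Vil1cre/+ cells and 146 and 575 in the controls, and then overlapped with Ccl3 in both genotypes. With the longest coding transcript used for both genes, the ratio of Cxcl2 to Cxcl3 per kilobase changed from between 9.07 and 21.9 over the 4 libraries to between 2.93 and 7.06, with Cxcl2 the higher in each. In both forms the ratio was highest in control library 67 and lowest in library 71.

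The difference between the libraries of 1 genotype was not the contrast on which the genes were chosen. The adjusted p-values used in that choice depend on the spread within a genotype, so this difference was not free of the selection. It rests on 1 library against 1 and has no test. Within Efhd2f/f Vil1cre/+ cells, library 71 was above library 65 for 3 of 5 members, Cxcl3, Prok2 and Alox5ap, and for 64.8% of the listed genes. The log2 values of library 71 minus 65 were -2.003 for Ccl3, -0.47 for Cxcl2, 0.27 for Cxcl3, 0.05 for Prok2 and 1.61 for Alox5ap, with a median of 0.32 over the listed genes. Among the listed genes, 3 had a lower value than Ccl3 and 20 had a higher value than Alox5ap. These 2 members were thus toward opposite ends of the difference between the same libraries, and both were more than 2-fold apart, as were 35.9% of the listed genes. Within the controls, library 68 was above library 67 for 4 of 5 members, Prok2 being the exception, and for 77.3% of the listed genes. On the log2 scale these differences were 1.97 for Cxcl3, 1.49 for Alox5ap, 1.28 for Cxcl2, 0.99 for Ccl3 and -0.51 for Prok2, with a median of 0.88 over the listed genes. They were above 1 for 3 of 5 members and above 1 in either direction for 39.8% of the listed genes. Cxcl3 was the third from the top of this order, with 2 listed genes above it.

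Genes of neutrophils also differed between the libraries. The table of day 7 held 9 of 17 early neutrophil granule genes, and each of the 9 was higher in both Efhd2f/f Vil1cre/+ libraries than in both controls, as were 90.6% of all listed genes. Their summed level was from 4536 to 25695 normalized counts in Efhd2f/f Vil1cre/+ cells and from 480 to 1175 in the controls. All 9 were higher in library 71 than in library 65, as were 64.8% of all listed genes. Their median log2 difference between these libraries was 2.22, and Ngp, a granule protein gene, was at 7712 against 90.6. Stfa2, a stefin gene named after its values were seen, was listed at 0 in both controls. Of 22 mature neutrophil genes, 10 were listed, with sums from 23757 to 53177 and from 4967 to 8529. All 10 were higher in library 71 (64.8% over all listed genes), with a median log2 difference of 0.83. Alox5ap followed the direction of these lists between libraries 65 and 71, Prok2 and Cxcl3 were within 0.27 of equal on the log2 scale, and Ccl3 and Cxcl2 went the other way. The mature neutrophil genes Clec4e (0.03), Mrgpra2b (0.21) and Wfdc17 (0.22) were as near to equal as Prok2 and Cxcl3. The others on that list were at 0.50 (Fpr2) or above.

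Of 25 monocyte and macrophage genes, 6 were listed, all higher in both Efhd2f/f Vil1cre/+ libraries (90.6% over all listed genes), with sums from 16700 to 21393 and from 3076 to 5589. Of these 6, Chil3 is also on the early granule list. Between libraries 65 and 71 they were divided, with 3 higher in each. Spp1, the osteopontin gene, was at 755 in library 65 and 97.6 in library 71, an order shared with Ccl3. Of 7 red cell genes, 4 were listed, with sums from 3992 to 4139 in Efhd2f/f Vil1cre/+ cells and from 562 to 1344 in the controls. None of the 20 T and NK cell genes or 14 B and plasma cell genes was listed on day 7. This does not show that such cells were absent. The cytokine genes Il17a and Il17f, described below, were listed but are on neither list. The table did hold 7 immunoglobulin genes that are not on the B and plasma cell list, found after the values were seen. All 7 were higher in both Efhd2f/f Vil1cre/+ libraries than in both controls, as were 90.6% of all listed genes. Their sums were from 480 to 867 normalized counts in Efhd2f/f Vil1cre/+ cells and low in the controls, from 64.3 to 64.7. Among them Ighg2c was at 214 and 279 normalized counts in libraries 65 and 71 against 18.2 and 8.96 in libraries 67 and 68. Of 22 epithelial genes, 1 was listed on day 7 (Clca4b, higher), so the epithelial label of the libraries was not checked by markers such as Epcam or Cdh1. The part of these cell types in the levels of the members was not tested.

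**Figure D3:**
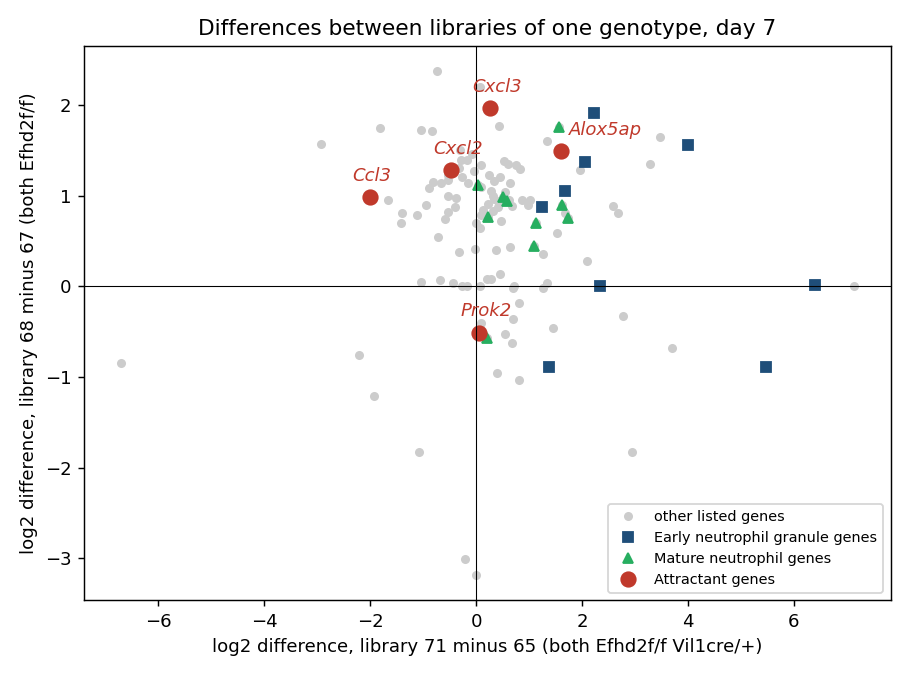
Log2 differences of the 128 listed genes of day 7 between the libraries of one genotype, with Efhd2f/f Vil1cre/+ on the horizontal axis (library 71 minus 65) and Efhd2f/f on the vertical axis (68 minus 67). All 9 early neutrophil granule genes (blue squares) and all 10 mature neutrophil genes (green triangles) are right of zero, as are 64.8% of all listed genes. Among the members (red), Ccl3 is at -2.003, Cxcl2 at -0.47 and Alox5ap at 1.61.

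The listed gene most like each member was found from the root mean square difference of the log2 values over the 4 libraries of day 7, after the mean of each gene was removed. Nearest to Alox5ap was Retnlg, a resistin-like gene of neutrophils, with a difference of 0.10, followed by F13a1 (0.16) and Wfdc21 (0.19). Nearest to Ccl3 were Timp1, an inhibitor of metalloproteinases (0.31), Slc7a11, a cystine transporter gene (0.32), and Inhba, which encodes an activin subunit (0.40). As follows from how they were picked, these genes were higher in library 65 than in library 71, Inhba at 858 against 271 normalized counts. Nearest to Cxcl2 were Mal (0.06), Stom (0.11) and the globin gene Hbb-bs (0.15). For Cxcl3 they were Tarm1 (0.24), Hba-a2, another globin gene (0.27), and Alas2, a haem synthesis gene of red cells (0.28). Nearest to Prok2 were Marco, a scavenger receptor gene of macrophages (0.21), Ighv1-34 (0.24), and Reg3g, an antimicrobial lectin gene (0.42). Marco and Ighv1-34 were listed at 0 in both control libraries, so their nearness to Prok2 depends on the constant added before the logarithm. The order of likeness was not computed with another constant. The neighbours Cxcl2 and Cxcl3 differed from each other by 0.45, so that Cxcl3 came 42 in the order of likeness to Cxcl2. With 4 libraries and genes selected for the same difference, this order is a description of these libraries.

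Few other genes of the same pathways were listed. Of 15 CXC chemokine genes, 2 were listed on day 7, both of them members, and of 25 genes of the other chemokine classes 1 was listed, Ccl3. None of 23 chemokine receptor genes was listed on day 7, among them Cxcr2 and Ccr1. Of 4 prokineticin and prokineticin receptor genes and 14 genes of leukotriene synthesis and response, Prok2 and Alox5ap were the listed ones, so levels of Alox5 and of the leukotriene B4 receptors on day 7 were not analysed here. A gene that is not listed did not necessarily have equal levels, because it may have missed the authors' thresholds.

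Of 25 other phagocyte attractants, their inducers and their receptors, 10 were listed on day 7, all 10 higher in both Efhd2f/f Vil1cre/+ libraries than in both controls (90.6% over all listed genes), with a median log2 difference of 2.61 beside 2.53 for all listed genes. Receptors, attractant proteins and inducing cytokines were among them. The formyl peptide receptor genes Fpr1 and Fpr2 had log2 differences of 2.62 and 2.24, and Trem1, an amplifying receptor of myeloid cells, of 1.70. S100a8 and S100a9, the calprotectin genes, had log2 differences of 2.61 and 2.58, and Saa3, a serum amyloid A gene, of 3.08. Csf3, which encodes the neutrophil growth factor G-CSF, was at 319 and 260 normalized counts in Efhd2f/f Vil1cre/+ libraries 65 and 71 and at 14.5 and 43.0 in control libraries 67 and 68. Its order was that of Cxcl2 in all 4 libraries, with a log2 difference of 3.47. Il17a and Il17f, cytokine genes that induce CXC chemokines in epithelium, were low, at 77.3 and 37.0 against 1.61 and 7.65 normalized counts for Il17a and at 39.6 and 14.4 against 0.82 and 2.19 for Il17f. Both were higher in library 65, as was Il1a, at 1241 and 695 against 88.7 and 292, an order shared with Cxcl2 and Ccl3. Fpr1, Fpr2, Trem1, S100a8 and S100a9 were higher in library 71, as was Alox5ap, and these 5 genes are also on the list of mature neutrophil genes.

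**Figure D4:**
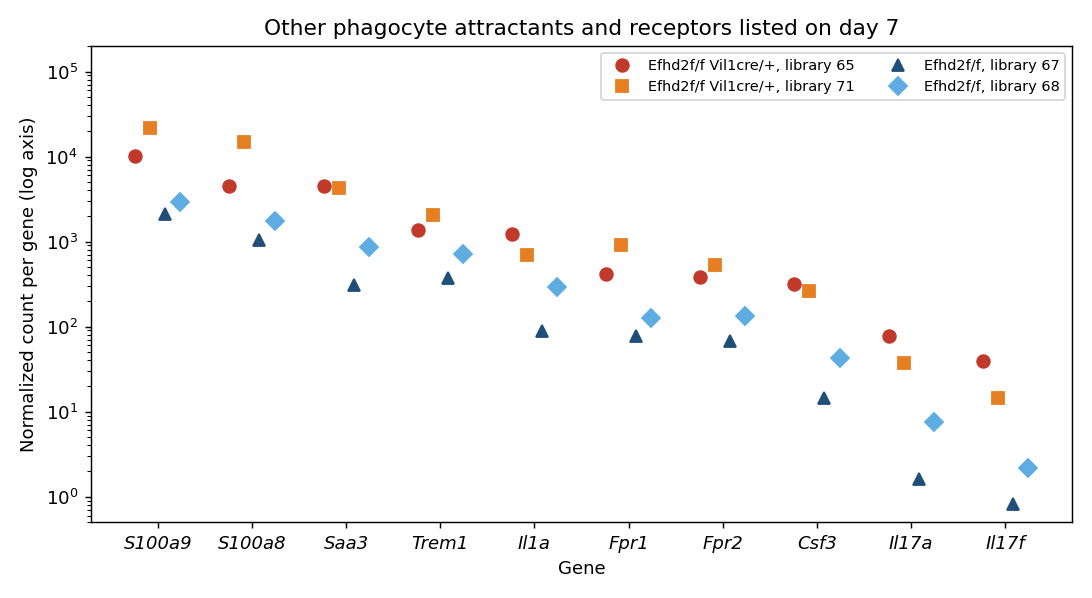
Normalized counts (log axis) of the 10 listed genes among the other phagocyte attractants, inducers and receptors in the 4 libraries of day 7, ordered by mean. Both Efhd2f/f Vil1cre/+ libraries are above both Efhd2f/f libraries for each gene, as for 90.6% of all listed genes. Library 71 is the higher of its genotype for 5 of the 10 (64.8% over all listed genes) and library 65 for the other 5.

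On day 0, without DSS, Efhd2 itself was at 634 ± 112 normalized counts in Efhd2f/f Vil1cre/+ cells and 2674 ± 16.2 in the controls (n = 2 each). Efhd2 is absent from the genes listed on day 7, and its level could not serve there as a check of the genotypes. With none of the members listed, the levels of Cxcl2, Cxcl3, Ccl3, Prok2 and Alox5ap on day 0 were not analysed here. Other genes of the fixed lists were found on that day, when 99 of the 309 listed genes were higher in both Efhd2f/f Vil1cre/+ libraries than in both controls and 207 were lower. Cxcl1, the CXC chemokine gene between Cxcl3 and Cxcl2 on chromosome 5, was at 19.3 and 16.7 normalized counts in libraries 51 and 53 of Efhd2f/f Vil1cre/+ cells and at 0.97 and 4.28 in control libraries 50 and 52. It was higher in both Efhd2f/f Vil1cre/+ libraries, at low levels, with a log2 difference of 2.55, and was not listed on day 7. Ltb4r1, which encodes a leukotriene B4 receptor, was at 6.08 and 6.49 against 27.4 and 31.4 normalized counts in the same order, a log2 difference of -2.06. The lymphocyte chemokine gene Xcl1 and the receptor gene Ccr9 had log2 differences of -1.60 and -1.0. Of the other phagocyte attractants, C3 (-1.62), Saa3 (-1.46) and Rarres2 (-1.64) were listed. All of these were lower in both Efhd2f/f Vil1cre/+ libraries, as were 207 of the 309 listed genes. So were all 7 listed T and NK cell genes, Xcl1 among them, all 3 listed B and plasma cell genes and all 3 listed epithelial genes. The part of these cell types on day 0 was not tested.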

How the data were processed

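Libraries of colonic epithelial RNA were made with the NEBNext Ultra kit and sequenced on an Illumina NovaSeq. The submitters' processing notes name CASAVA 1.8, fastp, HISAT2 2.0.5, featureCounts 1.5.0-p3 and DESeq2 1.20.0, and the builds GRCm38 and mm10. The authors deposited a table per day with a signal per library, a normalized count per gene whose scaling method is not given in the sources used here. The tables hold only genes that the authors kept by fold change and adjusted p-value. Their own fold changes and p-values were not used. Values below 1e-06 were set to 0 (25 on day 0, 14 on day 7). At the best common step, from 32.7% to 100% of the values under 60 were whole in the 8 libraries (within 0.05 of a whole number), so reads were not recovered. Depth is unknown and no count model or interval was used.

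Groups came from the sample titles. The library numbers in the tables are not replicate numbers of the labels. Means, s.d., differences of mean log2(value + 1) with standard errors from the pooled s.d., and library pairs were computed in Python 3.11.15 with pandas 2.3.3, and the code was tested on simulated data. Promoters were aligned with biopython 1.88. No test was run, since the members were selected on the contrast. Members and lists were chosen with earlier results of these data known. Named genes were the members, listed genes of the pathway lists, the 3 listed genes nearest to each member, up to 5 listed genes per cell type list, and Efhd2. Alternatives were constants of 0.1 and 10, a mean of at least 50, and each library left out. One gene was left out of the chemokine receptor list and is not reported here.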

Additional observations from a re-analysis of the deposited data

Results flagged for a closer look

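Of the 4 genes on the fixed lists that were listed on both days, 3 were below both controls in both Efhd2f/f Vil1cre/+ libraries on day 0 and above both on day 7, and none of them is a member. Over all listed genes, 207 of 309 were below both controls on day 0 and 90.6% were above both on day 7. In all, 9 genes were listed on both days, and those outside the fixed lists are not described here. The log2 difference of Saa3 was -1.46 on day 0 and 3.08 on day 7, that of Fcer1g, the Fc receptor gamma chain gene, was -1.98 and 1.85, and that of Spp1 was -2.85 and 2.67. The other, Alas2, was above both controls on both days, with log2 differences of 1.49 and 2.39. Spp1 was low on day 0, at 1.01 and 0 normalized counts against 9.80 and 8.71. The difference between the days was not tested, because the tables of the 2 days were normalized separately and hold genes selected in each comparison.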

How the results depend on the processing

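No paired analysis was possible because the columns of the tables carry no replicate number of the labels and no test was made. The constant added before the logarithm moved 1 member by more than its spread: Prok2, at 4.91 with 1, was at 5.18 with 0.1 and 3.54 with 10, which follows from its low control values. Leaving out one library at a time, the log2 difference ran from 1.36 to 2.64 for Cxcl2, 1.57 to 3.54 for Cxcl3, 1.16 to 3.16 for Ccl3, 4.65 to 5.16 for Prok2 and 1.75 to 3.36 for Alox5ap. The median of the members ran from 1.67 to 3.30 and that of all listed genes from 2.03 to 2.85. The count of members with no overlap between genotypes was 5 in each of these settings, which was fixed in advance. Leaving out a library cannot make genotypes overlap that were already apart. Among the 105 genes whose mean reached 50, which kept all 5 members, the share of genes with both Efhd2f/f Vil1cre/+ libraries above both controls was 90.5% and the median of the listed genes 2.39. No other scaling of the libraries was tried, because the tables hold only selected genes. Depth is unknown, so the counting error of low values, such as those of Prok2 in the controls, could not be given.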
